A study of Mus musculus with 8 samples.

Results

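Mouse embryonic stem (ES) cells that lack exon 6 on both alleles of *Tbxt* (delE6/delE6) were compared with wild-type (WT) cells over all genes. The genotype labels place 4 of the 8 samples of the series in this comparison, 2 in each group, and the other genotypes (delE6/+ and Insert ASAY) entered the fit only to share its estimate of the spread. Of the 48440 genes in the count files, 17049 passed a filter on low counts and were tested. The parental line is MK6, which comes from C57BL/6J mice. RNA was taken at day 1 of an in vitro differentiation, in which N2/B27 medium without LIF was supplemented with CHIR99021, an inhibitor of the kinase GSK3 that activates Wnt signalling. Exon 6 was removed with Cas9 and a pair of guide RNAs in feeder-free cells, followed by blasticidin and the picking of single clones. The delE6/delE6 libraries come from different clones, named here clone 1 (replicate 1) and clone 2 (replicate 2), so each clone is 1 library. The sources used here do not say whether the WT cells went through the same selection, so the genotype and the history of the clones cannot be told apart. The p-values measure the spread between these libraries only. The 4 libraries hold 24925247 to 28445952 reads on genes. The WT libraries differed from each other by 3.47 times the sampling noise (chi-square over its degrees of freedom) and the delE6/delE6 libraries by 11.4 times.

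*Tbxt* encodes Brachyury, a T-box transcription factor of the primitive streak, the notochord and the tailbud, which Wnt signalling induces. ES cells that leave the naive state lose factors such as *Nanog* and *Esrrb* and pass through a formative state before they adopt a germ layer. Imprinted genes are transcribed mainly from 1 parental allele, chosen by DNA methylation that is set in the germ line. Each of these groups is described below with the genes outside the *Tbxt* pathway.

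The sequence that separates the genotypes is shown because every value below is set against its loss. Exon 6 of *Tbxt* lies at chr17:8438616-8438789 on the plus strand of GRCm38 and belongs to the coding region. It is printed from the GENCODE M21 transcript with 8 exons, in capitals, between the last 30 bases of exon 5 and the first 30 bases of exon 7, followed by the same flanks joined, as a transcript without it would read.
Tbxt exons 5 to 7: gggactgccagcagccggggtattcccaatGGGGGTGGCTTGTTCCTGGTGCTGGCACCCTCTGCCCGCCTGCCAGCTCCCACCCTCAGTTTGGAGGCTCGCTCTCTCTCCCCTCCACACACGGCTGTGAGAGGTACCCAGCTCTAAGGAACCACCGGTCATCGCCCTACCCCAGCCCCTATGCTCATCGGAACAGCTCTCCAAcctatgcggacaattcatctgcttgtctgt
Tbxt exons 5 and 7 joined: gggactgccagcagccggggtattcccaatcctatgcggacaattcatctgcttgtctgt
The exon holds 174 bases, or 58 codons with 0 bases over, so both flanks stay in 1 reading frame. The count of a gene sums over all of its exons, and exon 6, which delE6/delE6 cells lack, makes up 8.5% of the length of this transcript.

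*Tbxt*, listed as T in the annotation, had 47 and 42 reads in the WT libraries and 26 and 22 reads in clones 1 and 2. As counts per normalised library size (CPM), these are 1.696 and 1.56 in WT and 1.05 and 0.807 in the clones, and both clones lay below both WT libraries. The log2 fold change was -0.81 (SE 0.28, edgeR adjusted p = 0.036), where SE is the standard error, with -0.63 and -1.01 in clones 1 and 2 taken alone. Clone 1 alone did not pass the test. The change was -0.75, -0.87 and -0.63, and not called, with WT replicate 1, WT replicate 2 or clone 2 left out in turn, and -1.01 and called without clone 1. DESeq2's Wald test gave -0.81 and no call (DESeq2 adjusted p = 0.152). Of 12 other tested genes within 1000 kb of *Tbxt*, 1 was called, where 12.7% of all tested genes were called. It was *1700010I14Rik*, whose reads rose from 13 and 10 to 21 and 33 with a log2 fold change of 1.29 (SE 0.34, edgeR adjusted p = 0.0111).

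Genes were called by edgeR's quasi-likelihood test where the Benjamini-Hochberg adjusted p over all tested genes was under 0.05 and the size of the log2 fold change was over 0.5. In delE6/delE6 cells 2167 genes were called, 12.7% of those tested. They divided into 1044 that were higher (6.12%) and 1123 that were lower (6.59%). With clone 2 left out the counts were 544 higher and 605 lower, and with clone 1 left out 1654 and 1734. The remaining clone is then assumed to vary like the other groups. The median log2 fold change over all tested genes was -0.01. Among the calls, 269 rose and 343 fell by more than 1 on the log2 scale.

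Which changes were found in both clones was asked in a second fit with a coefficient for each clone. Clone 1 alone differed from WT in 1152 genes (6.76%) and clone 2 in 3366 genes (19.7%), against the same WT libraries. Of the 2167 called genes, 981 (45.3%) passed both thresholds in the same direction in each clone, 479 of them higher (2.81% of the genes tested) and 502 lower (2.94%). Another 1051 passed in clone 2 alone, 69 in clone 1 alone and 66 in neither taken alone. Of all calls, 2164 (99.9%) had both clones on the same side of both WT libraries, which was also true of 67.6% of all tested genes. Clone 2 lay farther from WT than clone 1 in 1921 of the called genes (88.6%). The median size of the log2 difference over the called genes was 0.61 in clone 1 and 0.92 in clone 2. Of the 981 genes called in both clones, 858 lay farther from WT in clone 2, which the plot of the clones against each other shows.

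**Figure D1:**
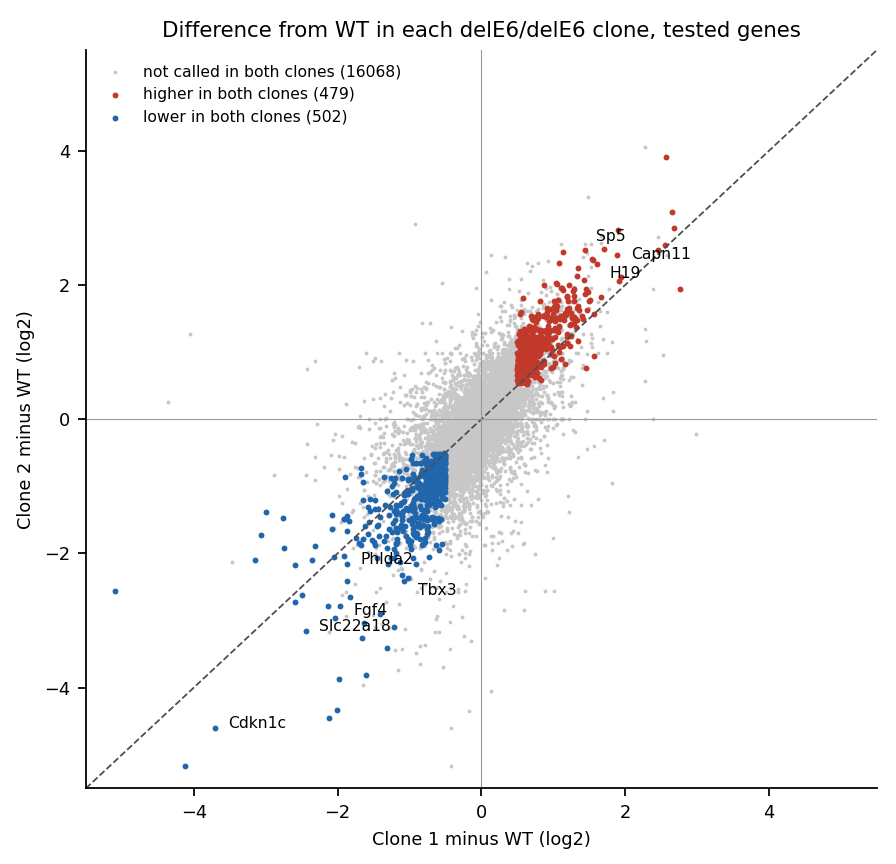
Log2 difference from the mean of the WT libraries in clone 1 (x axis) and clone 2 (y axis) for the 17049 tested genes, with genes called in both clones in colour (479 higher, 502 lower) and 7 points beyond the axes. Both axes share the WT libraries, and the dashed line marks equal differences; *Cdkn1c* is at -3.70 and -4.61.

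The genes with the largest changes in both clones, among those with a mean of at least 2 CPM, came from several classes. *Cdkn1c* (chr7:143458339-143461050, GRCm38), an imprinted inhibitor of cyclin-dependent kinases, had 77.1 and 76.8 CPM in WT and 5.91 and 3.15 CPM in clones 1 and 2. Clone 2 lay below clone 1 and both lay far below WT, and the log2 fold change was -4.10 (SE 0.14, edgeR adjusted p = 7.24e-09). *Fgf4* (chr7:144847367-144865243), the FGF ligand through which ES cells signal to themselves to leave the naive state, had 20.2 and 17.01 CPM in WT and 4.78 and 2.71 CPM in clones 1 and 2. Its log2 fold change was -2.33 (SE 0.18, edgeR adjusted p = 8.14e-06). *Hal*, the histidine ammonia-lyase that starts histidine breakdown, fell from 4.16 ± 0.299 to 0.917 ± 0.363 CPM (SD, n = 2), and *Pdk4*, a kinase that inhibits pyruvate dehydrogenase, fell from 8.07 ± 1.199 to 2.35 ± 0.164 CPM (SD, n = 2). *Abcg1*, a cholesterol exporter, *Tie1*, an endothelial receptor tyrosine kinase, *Aqp3*, a water and glycerol channel, and *Ebf1*, a transcription factor best known in B cells, were lower in both clones as well. Their log2 fold changes were -2.003, -1.72, -1.67 and -1.65. *Slc22a18* and *Phlda2*, which are described with the imprinted genes, *Crispld2* (-1.68) and the transcribed pseudogene *2210409E12Rik* (-2.20) complete the 12 largest falls. Reads of a pseudogene can be hard to tell from those of its parent gene, so the last value is uncertain.

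Among the rises, *Capn11*, a calcium-dependent protease, had 2.02 and 2.23 CPM in WT and 7.895 and 11.6 CPM in clones 1 and 2, and a log2 fold change of 2.20 (SE 0.20, edgeR adjusted p = 2.51e-05). *Sp5* (chr2:70474923-70477729), a zinc finger factor of the Sp family that Wnt signalling induces, had 9.998 and 9.71 CPM in WT and 26.7 and 56.5 CPM in clones 1 and 2. Clone 2 stood above clone 1 and both stood above WT, with a log2 fold change of 2.08 (SE 0.25, edgeR adjusted p = 0.000124). *Filip1l* rose by 1.79, *Irgm1*, an interferon-inducible GTPase, by 1.63, and *Trp53cor1*, the p53-induced long noncoding RNA known as lincRNA-p21, by 1.67 on the log2 scale. The other large rises were the zinc finger genes *Zfp758* (1.80) and *Zfp933* (1.68), the imprinted RNAs *H19*, *Mirg* and *Peg13*, the noncoding transcript *BC106179* (1.71) and the processed pseudogene *Gm12033* (1.98).

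Because *Sp5* had the largest rise among the transcription factor genes named here and lies downstream of the pathway that CHIR99021 activates, its promoter window is shown. It is taken from RefSeq (GRCm38.p6), spans chr2:70474673-70474972 on the plus strand, and runs from 250 bases before to 50 bases after the start. Capitals mark a match to CTTTGAT, the core of the Tcf/Lef motif, searched on both strands.
Sp5 promoter: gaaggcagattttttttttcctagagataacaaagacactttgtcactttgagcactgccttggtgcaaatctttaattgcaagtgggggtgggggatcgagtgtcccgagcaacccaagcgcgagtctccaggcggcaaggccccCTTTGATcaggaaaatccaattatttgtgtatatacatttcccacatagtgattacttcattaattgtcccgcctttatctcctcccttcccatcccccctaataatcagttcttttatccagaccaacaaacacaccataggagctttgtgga
This motif was found in 2.54% of the 14435 windows of tested genes, in 2.44% of 409 windows of genes higher in both clones and in 3.53% of 453 windows of genes lower in both clones. The T-box half-site TCACACCT, searched in the same way, was found in 0.838%, 0.244% and 1.1% of the same windows, or 121, 1 and 5 of them. The windows cover 11326 of the tested genes, matched through their Entrez identifiers.

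Gene lists differed widely in how many of their tested members were called. The bar plot of the 39 lists sets these shares against the 6.12% and 6.59% of all tested genes. The FGF-ERK response and imprinted lists stand at one end, and the naive pluripotency and two-cell-like lists at the other. Where a count moves by more than 1.5 times with a single library, it is given below with each library left out in turn, in the order WT replicate 1, WT replicate 2, clone 1, clone 2.

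**Figure D2:**
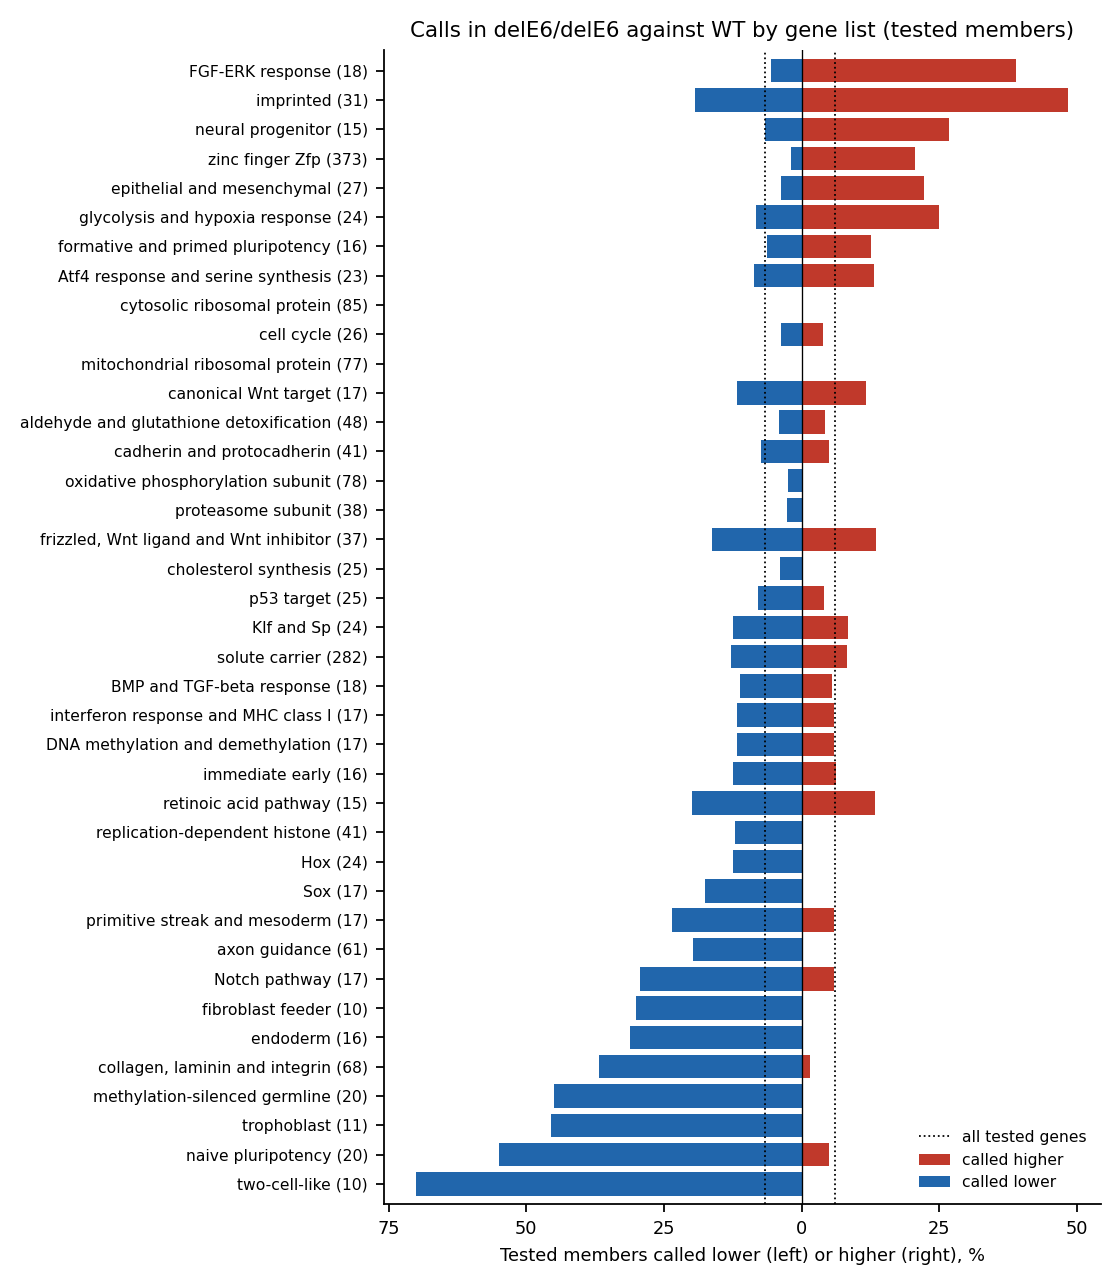
Percentage of the tested members of each gene list called lower (left, blue) or higher (right, red) in delE6/delE6 cells, with the number tested in parentheses and dotted lines at the share of all tested genes (6.59% lower, 6.12% higher). Lists are ordered by the difference of the shares.

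Imprinted genes changed in both directions, mostly upwards. Of 31 tested members 15 were higher and 6 lower, 67.7% of the list, and 14 and 6 of them passed in both clones. The median log2 fold change of the list was 0.50, against -0.01 over all tested genes. Split by the allele that textbooks give as expressed, 11 of 18 paternally expressed genes were higher and 1 was lower, whereas 4 of 11 maternally expressed genes were higher and 5 lower. In the fits without 1 library, 15, 13, 17 and 14 members were higher and 6 were lower each time. Members named below beyond the stated rule were chosen after their values were seen, to give the list as a whole.

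On distal chromosome 7, 3 neighbouring maternally expressed genes of the *Kcnq1ot1* domain were lower together. Beside *Cdkn1c*, these were *Phlda2*, which restrains placental growth and had 60.1 and 68.1 CPM in WT and 17.5 and 14.3 CPM in clones 1 and 2, and *Slc22a18*, an organic cation transporter with 5.197 and 5.36 CPM in WT and 0.972 and 0.587 CPM in clones 1 and 2. Their log2 fold changes were -2.01 (SE 0.09, edgeR adjusted p = 8.27e-08) and -2.77 (SE 0.22, edgeR adjusted p = 8.14e-06). *Kcnq1*, the potassium channel gene of the same domain, had 49 and 32 reads in WT and 2 and 1 reads in the clones. *Kcnq1ot1*, the paternally expressed noncoding RNA that silences this domain in cis, had 14.9 and 11.4 CPM in WT and 13.6 and 10.8 CPM in clones 1 and 2, and the groups overlapped. *Nap1l4*, which flanks the domain, was not called (log2 fold change 0.16). Nearby, *H19* (chr7:142575529-142578143), the maternally expressed noncoding RNA, had 36.6 and 41.5 CPM in WT and 118 and 193 CPM in clones 1 and 2. *Igf2* (chr7:142650766-142666816), the growth factor expressed from the paternal allele of the same locus, had 51.1 and 59.2 CPM in WT and 28.9 and 29.1 CPM in clones 1 and 2. The log2 fold changes were 2.000 (SE 0.18, edgeR adjusted p = 2.53e-05) and -0.93 (SE 0.08, edgeR adjusted p = 2.51e-05), so that the pair moved in opposite directions in both clones.

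The maternally expressed RNAs of the Dlk1-Dio3 domain on chromosome 12 rose together in both clones. *Rian* had 146 and 147 CPM in WT and 347 and 393 CPM in clones 1 and 2, and a log2 fold change of 1.34 (SE 0.06, edgeR adjusted p = 8.27e-08). *Meg3* went from 19.2 ± 0.102 to 45.1 ± 1.88 CPM (SD, n = 2) and *Mirg* from 6.56 ± 0.142 to 20.3 ± 2.58 CPM (SD, n = 2). *Dlk1*, the paternally expressed gene of this domain, had 3.75 and 4.13 CPM in WT and 4.94 and 3.23 CPM in clones 1 and 2, with the WT libraries between the clones. The reciprocal pair of chromosome 17 also moved in opposite directions. *Igf2r*, the maternally expressed receptor that clears IGF2, had 413 and 430 CPM in WT and 230 and 191 CPM in clones 1 and 2, while reads of *Airn*, the paternally expressed RNA that silences it, rose from 12 and 16 to 29 and 44. The counts are strand-specific, which separates these overlapping transcripts. *Grb10*, an adaptor that inhibits insulin signalling, fell from 676 ± 5.69 to 434 ± 14.7 CPM (SD, n = 2).

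Paternally expressed genes outside the domains above were mostly higher. *Mest*, a hydrolase-like gene, had 131 and 126 CPM in WT and 305 and 303 CPM in clones 1 and 2, and the clones were close to each other. Its log2 fold change was 1.24 (SE 0.06, edgeR adjusted p = 8.27e-08). *Impact*, an inhibitor of the kinase GCN2, *Peg10*, a gene of retrotransposon origin needed for the placenta, and its neighbour *Sgce* rose by 0.98, 0.89 and 0.79 on the log2 scale. *Peg3*, a zinc finger gene, rose by 0.75, *Nnat*, which encodes neuronatin, by 1.24, *Plagl1*, a zinc finger regulator of imprinted genes, by 0.60, *Zrsr1* by 0.55 and *Peg13* by 1.65. All of these passed in both clones. *Snrpn*, a splicing factor gene of the Prader-Willi domain, was the exception among the calls, with 35.6 and 33.3 CPM in WT and 35.4 and 62.1 CPM in clones 1 and 2. It rose by 0.51 over both clones, by 0.04 in clone 1 and by 0.85 in clone 2. *Ndn* (0.49), *Usp29* (0.02), *Magel2* (-0.02) and *Nap1l5* (0.92) were not called. Neither were *Zim1* (0.01) and *Ube3a* (0.04), which textbooks give as maternally expressed, nor *Gnas*.

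**Figure D3:**
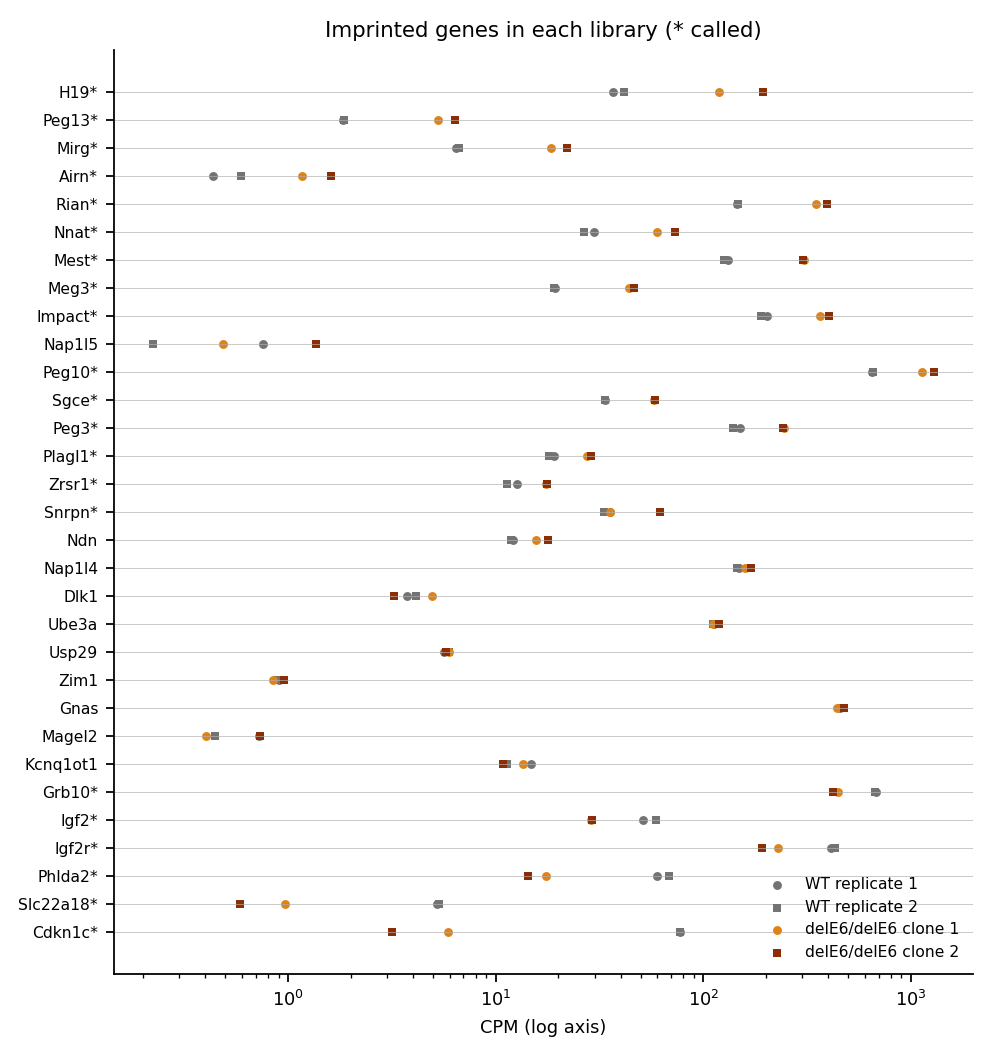
CPM on a log axis of the 31 tested imprinted genes in each of the 4 libraries, ordered by log2 fold change, with called genes starred. For the 3 genes at the foot, *Phlda2*, *Slc22a18* and *Cdkn1c*, the clones lie between 0.587 and 17.5 CPM and the WT libraries between 5.20 and 77.1.

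Naive pluripotency genes were mostly lower. Of 20 tested members 11 were lower and 1 higher, and 9 and 1 of them passed in both clones. Without WT replicate 2 the number higher was 2. The list's median was -0.82 on the log2 scale, -0.59 in clone 1 and -1.10 in clone 2. *Nanog*, the homeodomain factor of the naive network, had 38.7 and 32.9 CPM in WT and 21.05 and 13.8 CPM in clones 1 and 2, with a log2 fold change of -1.04 (SE 0.15, edgeR adjusted p = 0.00026). *Esrrb*, an orphan nuclear receptor that Wnt signalling keeps active in ES cells, had 58.7 and 58.9 CPM in WT and 31.05 and 26.2 CPM in clones 1 and 2 and -1.04 (SE 0.08, edgeR adjusted p = 5.47e-06). *Tbx3*, a T-box factor, had 63.2 and 57.4 CPM in WT and 28.7 and 11.3 CPM in clones 1 and 2, *Dppa5a*, an RNA-binding protein gene, 561 and 528 CPM in WT and 231 and 170 CPM in clones 1 and 2, and *Fbxo15*, a target of Oct4, 47.6 and 45.2 CPM in WT and 23.3 and 12.6 CPM in clones 1 and 2. All 3 lay below WT in both clones and lower in clone 2 than in clone 1. *Prdm14*, which keeps cells naive, had the largest log2 change of the list (-2.79) at a mean under 1 CPM. *Pecam1*, an adhesion molecule of naive cells, fell by 1.28, *Tfcp2l1*, a factor downstream of LIF, by 0.90, and *Dppa3*, which protects maternal methylation marks, by 1.14, the last 2 named after their values were seen.

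The other 8 members of the naive list were not called. *Klf4*, *Zfp42* (Rex1), *Dppa4* and *Nr5a2*, named after their values were seen, had log2 fold changes of -0.07, 0.15, 0.06 and -0.15. *Gbx2*, a homeobox gene that LIF signalling induces in ES cells, was the called gene that was higher, with 2.85 and 2.903 CPM in WT and 5.101 and 6.01 CPM in clones 1 and 2. The core factor *Pou5f1* (Oct4) had 295 and 282 CPM in WT and 214 and 156 CPM in clones 1 and 2 and fell by 0.64 on the log2 scale, past the thresholds in clone 2 alone. *Sox2* had 71.2 and 66.2 CPM in WT and 65.6 and 47.3 CPM in clones 1 and 2, a log2 fold change of -0.29, and was not called. Among the 16 formative and primed genes 2 were higher and 1, *Foxd3* (-1.40, under 1 CPM), was lower. DESeq2 and the fit without WT replicate 1 gave 0 lower, and without clone 2 the number higher was 1. *Pou3f1* (Oct6), a POU factor of the epiblast, had 23.6 and 21.96 CPM in WT and 33.9 and 42.2 CPM in clones 1 and 2, and a log2 fold change of 0.74 (SE 0.10, edgeR adjusted p = 0.000198). *Sall2* rose by 0.58, past the thresholds in clone 2 alone. *Fgf5*, a marker of the primed epiblast, had 0.433 and 0.112 CPM in WT and 0.202 and 0.5501 CPM in clones 1 and 2, and *Otx2*, the homeodomain factor of formative cells, 0.0361 and 0.223 CPM in WT and 0.243 and 0.183 CPM in clones 1 and 2. Their log2 fold changes were 0.48 (SE 0.67, edgeR adjusted p = 0.611) and 0.70 (SE 0.69, edgeR adjusted p = 0.458).

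Genes of the rare two-cell-like state of ES cell cultures were lower where called. Of 10 tested members 7 were called, each lower, 4 of them in both clones, with a list median of -0.96. *Zscan4c* and *Zscan4d*, which maintain telomeres in that state, had 3.57 and 3.72 CPM in WT and 2.35 and 1.87 CPM in clones 1 and 2 and 3.86 and 4.39 CPM in WT and 2.35 and 2.09 CPM in clones 1 and 2, respectively. *Usp17la*, a deubiquitinase gene of a cluster active in the same state, had 2.67 and 2.98 CPM in WT and 1.58 and 1.61 CPM in clones 1 and 2. In each case both clones lay below both WT libraries, with log2 fold changes of -0.79, -0.90 and -0.82. These genes have near-identical copies, to which reads are hard to assign, so the value of a single copy is uncertain. By DESeq2's Wald test 4 of the 10 were called.

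Among germline genes that promoter methylation silences in somatic cells, the calls came mainly from clone 2. Of 20 tested members 9 were called, each lower, and 2 of them in both clones. Taken alone, clone 1 had 2 calls and clone 2 had 17. Between the clones 14 members were called, each lower in clone 2, where 2.55% of all tested genes were called in either direction. Over the fits that leave out 1 library, 7, 5, 17 and 2 members were lower. *Dazl*, an RNA-binding protein of germ cells, had 21.6 and 23.6 CPM in WT and 18.1 and 11.04 CPM in clones 1 and 2, and *Ddx4*, the RNA helicase Vasa, had 35.98 and 39.4 CPM in WT and 29.5 and 22.7 CPM in clones 1 and 2. Clone 1 lay nearer to WT than clone 2 for both. *Brdt*, a testis bromodomain protein, had 9.82 and 10.2 CPM in WT and 7.17 and 3.19 CPM in clones 1 and 2, *Piwil2*, a piRNA-binding protein, 44.9 and 45.7 CPM in WT and 34.4 and 21.4 CPM in clones 1 and 2, and *Sycp1*, a component of the synaptonemal complex, 19.9 and 19.9 CPM in WT and 14.05 and 8.76 CPM in clones 1 and 2. Against WT their log2 fold changes were -0.96 (SE 0.24, edgeR adjusted p = 0.00738), -0.71 (SE 0.15, edgeR adjusted p = 0.00305) and -0.81 (SE 0.16, edgeR adjusted p = 0.00182). *Dpep3*, a testis dipeptidase, fell by 1.14 and passed in both clones with *Sycp1*. Members that clone 1 left near WT included *Hormad1*, *Syce1*, *Mov10l1* and *Slc25a31*, with differences of -0.01, -0.02, -0.06 and -0.04 in clone 1 and -0.82, -0.92, -0.78 and -0.89 in clone 2, named after their values were seen.

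**Figure D4:**
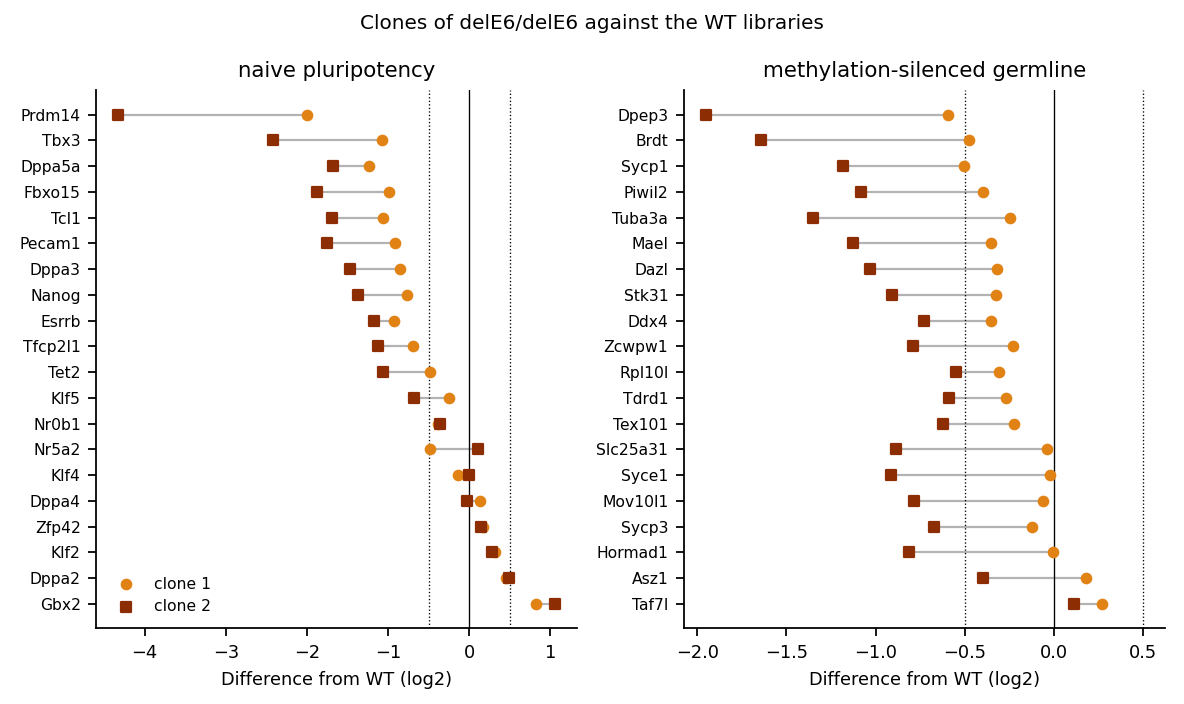
Log2 difference from the WT libraries in clone 1 (circles) and clone 2 (squares) for the 20 tested naive pluripotency genes and the 20 tested methylation-silenced germline genes, with dotted lines at the threshold of 0.5 in size. The clones share the WT libraries; in the germline list 17 genes were called in clone 2 and 2 in clone 1.

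Of 17 tested genes for enzymes and cofactors that set, read or remove DNA methylation 1 was higher and 2 were lower, all in clone 2 alone. With each library left out in turn, 1, 0, 2 and 0 were higher and 2, 2, 4 and 0 lower. *Dnmt1*, the maintenance methyltransferase, had 251 and 264 CPM in WT and 279 and 297 CPM in clones 1 and 2, and *Dnmt3l*, a cofactor of de novo methylation, had 256 and 289 CPM in WT and 267 and 185 CPM in clones 1 and 2. Neither was called against WT, although *Dnmt3l* was lower in clone 2 than in clone 1 (log2 difference -0.53, edgeR adjusted p = 3.08e-05). *Tet2*, a dioxygenase that starts demethylation in naive cells, fell from 19.4 ± 1.704 to 11.6 ± 3.26 CPM (SD, n = 2), *Tet3* rose from 24.8 ± 2.52 to 37.5 ± 4.81 CPM (SD, n = 2), and *Gadd45b* fell by 0.66.

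Response genes of the FGF-ERK pathway were higher where called, and the ligand *Fgf4* was lower. Of 18 tested genes 7 were higher and 1, *Fgf4*, was lower, and 6 and 1 passed in both clones. The list median was 0.41. *Egr1*, an immediate early zinc finger factor, had 28.98 and 26.3 CPM in WT and 44.8 and 49.2 CPM in clones 1 and 2, with 0.77 (SE 0.08, edgeR adjusted p = 5.08e-05). *Myc* had 7.399 and 8.82 CPM in WT and 13.5 and 16.3 CPM in clones 1 and 2, with 0.88 (SE 0.13, edgeR adjusted p = 0.000427). *Ier3*, an early response gene, had 6.57 and 7.67 CPM in WT and 11.7 and 17.8 CPM in clones 1 and 2, and the feedback inhibitor *Spry4* had 4.62 and 5.69 CPM in WT and 7.29 and 8.14 CPM in clones 1 and 2. Both groups were separate in each case, with log2 fold changes of 1.05 and 0.58. *Dusp6*, the ERK phosphatase most used as a readout, had 34.6 and 34.02 CPM in WT and 51.4 and 41.3 CPM in clones 1 and 2 and did not pass the fold threshold (log2 fold change 0.43, SE 0.09, edgeR adjusted p = 0.00258). Among 16 tested immediate early genes 1 was higher (*Egr1*) and 2 were lower, with 2, 1, 1 and 2 higher and 0, 1, 2 and 1 lower when each library was left out in turn. DESeq2 called 0 lower. *Fos* and *Fosb* had log2 fold changes of -0.29 (SE 0.24, edgeR adjusted p = 0.363) and -0.42 (SE 0.43, edgeR adjusted p = 0.47). *Arc* fell by 0.50, just past the threshold, and passed in clone 1 alone. *Ccn2*, a target of YAP, fell by 0.69, with -0.24 in clone 1 and -1.34 in clone 2.

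Of the tested canonical Wnt targets 23.5% were called, against 12.7% of all tested genes. The list median was 0.21 on the log2 scale, 0.07 in clone 1 and 0.23 in clone 2. Over both clones 13 members lay above 0 and 4 below. Of 17 tested canonical targets 2 were higher, 2 lower and 13 not called, and 2, 3, 4 and 2 were higher with each library left out in turn. *Axin2*, the feedback inhibitor most used as a readout of the pathway, had 31.3 and 32.6 CPM in WT and 30.7 and 42.5 CPM in clones 1 and 2, with the WT libraries inside the range of the clones, and was not called (log2 fold change 0.20, SE 0.12, edgeR adjusted p = 0.205). *Zfp703*, a zinc finger co-repressor, rose with *Sp5*, from 19.99 ± 0.0963 to 39.5 ± 10.98 CPM (SD, n = 2). *Rnf43*, a ubiquitin ligase that removes Frizzled receptors, had 8.55 and 7.82 CPM in WT and 4.86 and 3.67 CPM in clones 1 and 2, and fell by 0.95, together with *Ascl2* (-1.14), a helix-loop-helix factor named after its values were seen. Among 37 tested ligand, receptor and inhibitor genes 5 were higher and 6 lower. In the fits without 1 library, 3, 3, 8 and 3 were higher and 5, 5, 9 and 2 lower. *Wnt6* had 7.62 and 7.85 CPM in WT and 16.7 and 22.4 CPM in clones 1 and 2, with 1.34 (SE 0.13, edgeR adjusted p = 3.55e-05). The receptor gene *Fzd6* rose by 0.95. *Porcn*, the acyltransferase that all Wnt ligands need for secretion, had 9.46 and 10.2 CPM in WT and 5.02 and 3.34 CPM in clones 1 and 2, with -1.24 (SE 0.18, edgeR adjusted p = 0.000314), and the secreted inhibitor *Sfrp1* fell by 0.78, in clone 2 alone.

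Of the Notch genes 1 of 17 was higher and 5 were lower, and 3, 4, 5 and 3 were lower with each library left out in turn. *Dll1*, a ligand, had 38.7 and 44.99 CPM in WT and 21.4 and 17.3 CPM in clones 1 and 2, with -1.12 (SE 0.10, edgeR adjusted p = 2.91e-05), and the ligand gene *Jag2* fell from 121 ± 5.45 to 78.5 ± 3.14 CPM (SD, n = 2). *Hes1*, the repressor that Notch and other signals induce, had 3.68 and 3.57 CPM in WT and 6.68 and 8.29 CPM in clones 1 and 2, with 1.05 (SE 0.14, edgeR adjusted p = 0.000232). *Notch1* was not called (-0.29), and *Mfng*, a glycosyltransferase that modifies Notch, fell by 0.63, past the thresholds in clone 2 alone. The ligand genes *Jag1* (-0.61) and *Dll4* (-1.31), named after their values were seen, complete the 5. In the retinoic acid pathway 2 of 15 were higher and 3 lower, with 2, 1, 2 and 2 higher and 1, 2, 5 and 1 lower when each library was left out in turn. *Crabp2*, which carries retinoic acid to the nucleus, had 5.59 and 4.65 CPM in WT and 9.07 and 10.4 CPM in clones 1 and 2, whereas *Crabp1* had 13.6 and 14.4 CPM in WT and 9.84 and 7.52 CPM in clones 1 and 2. *Rarb*, a receptor gene induced by its own ligand, rose by 0.78. *Cyp26a1*, which degrades retinoic acid, had 0.974 and 0.707 CPM in WT and 0.405 and 0.22 CPM in clones 1 and 2 (log2 fold change -1.44, SE 0.39, edgeR adjusted p = 0.0124). It passed in clone 2 alone. *Dhrs3*, a retinaldehyde reductase named after its values were seen, was the other lower gene (-0.78). Of 18 BMP and TGF-beta response genes 1 was higher, *Id3* (1.66), and 2 were lower, *Bmp4* (-1.24) and *Lefty2*. Over the fits that leave out 1 library, 1, 1, 3 and 1 were higher and 2, 0, 2 and 2 lower. *Id3* and *Bmp4* were named after their values were seen. *Id1*, a BMP target, had 0.6497 and 0.707 CPM in WT and 0.891 and 1.61 CPM in clones 1 and 2 and did not pass (log2 fold change 0.90, SE 0.34, edgeR adjusted p = 0.0535), and *Id2* had a log2 fold change of 0.32. *Lefty2*, a *Nodal* inhibitor, fell by 0.57, past the thresholds in clone 1 alone.

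Matrix and guidance genes were mostly lower where they were called. Of 68 tested collagen, laminin and integrin genes 25 were lower and 1 higher, with a median of -0.45, and 12 and 1 passed in both clones. With each library left out in turn, 21, 15, 26 and 14 were lower, and without clone 1 the number higher was 2. *Col11a1*, a fibrillar collagen, had 9.02 and 9.602 CPM in WT and 4.09 and 3.85 CPM in clones 1 and 2, with -1.23 (SE 0.14, edgeR adjusted p = 7.82e-05). *Itga4* and *Itgb3*, integrin chains, fell as well, with log2 fold changes of -1.06 and -0.89. *Itgb8*, an integrin chain that activates latent TGF-beta, was the exception, with 1.62 and 2.05 CPM in WT and 3.12 and 4.99 CPM in clones 1 and 2 and 1.15 (SE 0.24, edgeR adjusted p = 0.00279). *Fn1*, fibronectin, which belongs to the epithelial and mesenchymal list, had 1204 and 1247 CPM in WT and 758 and 608 CPM in clones 1 and 2, with -0.84 (SE 0.08, edgeR adjusted p = 2.28e-05). Of 61 axon guidance genes 12 were called, each lower, 6 of them in both clones, and without clone 1 the list had 1 higher. *Epha8* and *Ephb3*, ephrin receptors, had 11.7 and 12.8 CPM in WT and 7.45 and 4.401 CPM in clones 1 and 2 and 35.01 and 35.9 CPM in WT and 22.2 and 17.9 CPM in clones 1 and 2, respectively. *Slit1*, a repulsive ligand, fell by 1.06 and *Efna1*, an ephrin, by 0.93.

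Of the tested cadherin and protocadherin genes 12.2% were called, close to the 12.7% of all tested genes. Of 41 tested cadherin and protocadherin genes 2 were higher and 3 lower, with 1, 1, 5 and 1 higher and 2, 3, 5 and 3 lower when each library was left out in turn. *Cdh3* (P-cadherin) had 26.6 and 28.02 CPM in WT and 14.8 and 13.9 CPM in clones 1 and 2, with -0.93 (SE 0.09, edgeR adjusted p = 3.3e-05), *Cdh4* (R-cadherin) had 5.96 and 8.15 CPM in WT and 12.5 and 14.4 CPM in clones 1 and 2, with 0.93 (SE 0.14, edgeR adjusted p = 0.000342), *Cdh15* and *Pcdh19* fell (-0.80 and -0.51), and *Pcdh18*, named after its values were seen, rose in clone 2 alone (1.17 over both). In the epithelial and mesenchymal list 6 of 27 were higher and 1, *Fn1*, was lower, or 2 without clone 2. *Cdh1* (E-cadherin) had 768 and 818 CPM in WT and 675 and 651 CPM in clones 1 and 2 and was not called (-0.26). *Vim*, an intermediate filament protein of mesenchymal cells, had 138 and 140 CPM in WT and 188 and 205 CPM in clones 1 and 2, with a log2 fold change of 0.498, just short of the threshold. *Anxa1* and *Anxa2*, annexins, rose by 1.18 and 0.94, and *Esrp2*, an epithelial splicing regulator, by 0.98. Both annexins were higher in clone 2 (1.60 and 1.20) than in clone 1 (0.55 and 0.63).

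Zinc finger genes of the Zfp series were the largest class with calls mainly in 1 direction. Of 373 tested genes 77 were higher and 7 lower, a median of 0.17, and 45 and 4 passed in both clones. In the fits without 1 library, 61, 63, 101 and 47 were higher and 6, 8, 15 and 6 lower. Most of these genes encode DNA-binding proteins, many with a KRAB domain that recruits repressors of transposons. The called genes with the largest changes and a mean of at least 2 CPM were expressed at low levels. *Zfp758* had 0.974 and 1.04 CPM in WT and 2.55 and 4.44 CPM in clones 1 and 2, *Zfp933* had 2.31 and 2.05 CPM in WT and 5.101 and 8.76 CPM in clones 1 and 2, *Zfp719* had 4.76 and 4.39 CPM in WT and 9.23 and 14.7 CPM in clones 1 and 2 and *Zfp345* had 3.86 and 3.46 CPM in WT and 7.33 and 10.9 CPM in clones 1 and 2. In all 4 both clones lay above both WT libraries, with log2 fold changes of 1.80, 1.68, 1.39 and 1.32. Many genes of this family lie in clusters of similar sequence, so reads can be hard to assign to a single copy.

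Genes of glycolysis and the hypoxia response were higher in part. Of 24 tested genes 6 were higher and 2 lower, with a median of 0.30, and 5 higher genes passed in both clones. The lower genes were *Slc2a3*, a glucose transporter (-0.58), and *Pfkm*, a phosphofructokinase (-0.51), named after their values were seen, and 2, 1, 3 and 0 were lower with each library left out in turn. *Ldha*, which makes lactate, had 460 and 460 CPM in WT and 674 and 954 CPM in clones 1 and 2, with 0.82 (SE 0.11, edgeR adjusted p = 0.000184). *Pdk1*, which diverts pyruvate from mitochondria, had 224 and 231 CPM in WT and 410 and 498 CPM in clones 1 and 2, with 0.997 (SE 0.07, edgeR adjusted p = 5.47e-06). *Bnip3*, a mitophagy receptor, and *Slc16a3*, a lactate exporter, rose by 1.02 and 0.94. *Hk2*, hexokinase, was not called (0.22). Of 48 tested aldehyde and glutathione detoxification genes 2 were higher and 2 lower, all in both clones, and without clone 1 the number lower was 5. *Srxn1* and *Hmox1*, targets of the oxidative stress factor Nrf2, had 58.5 and 64.5 CPM in WT and 120 and 192 CPM in clones 1 and 2 and 162 and 172 CPM in WT and 287 and 347 CPM in clones 1 and 2, respectively. *Gstp2*, a glutathione transferase, fell by 1.17, and *Gpx4*, which removes lipid peroxides, by 0.65.

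In the list of *Atf4* response and serine synthesis genes 3 of 23 were higher and 2 lower, and 1, 2, 3 and 1 were lower with each library left out in turn. *Atf4* and *Asns* were not called (0.07 and 0.02). *Slc7a11*, the cystine transporter, *Stc2*, a secreted glycoprotein, and *Vldlr*, a lipoprotein receptor, rose by 1.05, 1.01 and 0.51, whereas *Ddit3* (CHOP), a stress factor, had 160 and 154 CPM in WT and 99.5 and 53.5 CPM in clones 1 and 2, with -1.04 (SE 0.18, edgeR adjusted p = 0.000934). *Nupr1* fell by 0.55, in clone 2 alone. Of the tested p53 targets 12.0% were called, close to the 12.7% of all tested genes. Among 25 p53 targets 1 was higher, *Trp53cor1*, and 2 were lower, and 1, 2, 4 and 0 were lower with each library left out in turn. *Trp53cor1* had 0.974 and 1.12 CPM in WT and 2.83 and 3.81 CPM in clones 1 and 2, and *Cdkn1a*, which lies next to it and encodes the p53-induced cell cycle inhibitor p21, had 238 and 246 CPM in WT and 308 and 285 CPM in clones 1 and 2 and did not pass the fold threshold (0.29). *Mdm2* was not called (-0.05), and *Sesn1* and *Eda2r* were lower in clone 2 alone (-0.55 and -0.50 over both). Of 26 cell cycle genes 1 was higher, *Ccne2* (cyclin E2, 0.73), and 1 lower, *Cdkn1c*, while *Ccnd1* was not called (0.43). Over the fits that leave out 1 library, 1, 2, 4 and 1 were higher.

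Of 282 tested solute carrier genes 23 were higher and 36 lower, 16 and 22 of them in both clones. With each library left out in turn, 16, 16, 37 and 16 were higher and 36, 31, 54 and 22 lower. Beside *Slc22a18*, the largest at a mean of at least 2 CPM were *Slc10a3*, which had 1.12 and 1.53 CPM in WT and 3.52 and 3.74 CPM in clones 1 and 2, *Slc46a3*, with 8.95 and 9.602 CPM in WT and 17.8 and 22.8 CPM in clones 1 and 2, and *Slc25a10*, the mitochondrial dicarboxylate carrier, with 7.62 and 7.85 CPM in WT and 13.2 and 19.6 CPM in clones 1 and 2. Those 3 rose in both clones. Of 25 cholesterol synthesis genes 1 was called, *Insig1*, a sterol sensor that holds back the pathway, with 265 and 258 CPM in WT and 183 and 148 CPM in clones 1 and 2 and -0.66 (SE 0.07, edgeR adjusted p = 8e-05). *Hmgcs1*, an early enzyme of the pathway, was not called (-0.02), and without clone 1 the list had 1 higher and 2 lower. Of 17 interferon response and MHC class I genes 1 was higher, *Oasl2* (1.15), and 2 were lower, the peptide transporter *Tap1* (-0.75) and the immunoproteasome subunit *Psmb9* (-0.68). *Oasl2* and *Psmb9* passed in both clones and *Tap1* in clone 2 alone. In the fits without 1 library, 1, 1, 2 and 1 of this list were higher and 1, 2, 2 and 1 lower.

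Ribosomal, oxidative phosphorylation and proteasome genes had few calls. Of 85 cytosolic ribosomal protein genes edgeR called 0, although 82 lay below 0, with a median of -0.18, and 1 was higher and 75 lower at an unadjusted edgeR p under 0.05. DESeq2 called 0 as well, and with each library left out in turn 0, 2, 1 and 0 were lower. Of 77 mitochondrial ribosomal protein genes both tools called 0, with a median of -0.03 and 13 higher and 20 lower at an unadjusted edgeR p under 0.05. Of 78 oxidative phosphorylation subunits 2 were lower, *Ndufb8* (-0.66) and *Cox7a1* (-0.64), and 64 lay below 0, with a median of -0.14. Without each library in turn, 0, 3, 4 and 2 were lower. *Psmb9* was the 1 call among 38 proteasome subunits, and it was lost without WT replicate 1 and by DESeq2. Of 41 replication-dependent histone genes 5 were called, each lower, with *Hist1h3c* (-0.90), *Hist3h2ba* (-0.82) and *Hist1h3e* (-0.77) the largest with at least 2 CPM, and 1, 3, 10 and 1 were lower with each library left out in turn. The 5 calls were 12.2% of the histone list, close to the 12.7% of all tested genes, and DESeq2 called 2 lower. *Hist1h3c* was the 1 that passed in both clones, and *Hist3h2ba* and *Hist1h3e* passed in clone 2 alone. Histone messages of this kind mostly lack poly(A) tails, so their level in poly(A) libraries is partial, and their sequences are near-identical.

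Of the tested Hox genes 12.5% were called, close to the 12.7% of all tested genes. Of 24 tested Hox genes 3 were called, each lower, *Hoxa4* (-0.93) in both clones and *Hoxb4* (-0.59) and *Hoxc13* (-0.53) in clone 2 alone. Over the fits that leave out 1 library, 1, 2, 8 and 1 were lower. Of 17 Sox genes 3 were lower, *Sox10* (4.19 and 3.98 CPM in WT and 1.903 and 1.504 CPM in clones 1 and 2), a neural crest factor, *Sox15* (-0.58) and *Sox30* (-0.77), and 1, 2, 3 and 1 with each library left out in turn. Of these Sox genes *Sox10* passed in both clones and *Sox15* in clone 2 alone. In the Klf and Sp family 2 of 24 were higher, *Sp5* and *Klf13* (0.60), and 3 were lower, *Sp1* (-0.57) in both clones and *Klf17* (-0.86) and *Klf15* (-0.67) in clone 2 alone. With each library left out in turn, 2, 3, 5 and 1 were lower. In the primitive streak and mesoderm list 1 of 17 was higher and 4 were lower, namely *Tbxt*, *Dll1*, *Lefty2* and *Mesp2* (-1.07), with 0, 1, 2 and 2 higher and 3, 1, 3 and 3 lower when each library was left out in turn. *Eomes*, a T-box factor of the streak, had 13.2 and 14.8 CPM in WT and 20.4 and 20.3 CPM in clones 1 and 2, with 0.54 (SE 0.12, edgeR adjusted p = 0.00361). *Mixl1*, a homeobox gene of the streak, was near the limit of detection, with 0.253 and 0.186 CPM in WT and 0.324 and 0.954 CPM in clones 1 and 2, and did not pass (log2 fold change 1.55, SE 0.58, edgeR adjusted p = 0.0524).

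Of 15 neural progenitor genes 4 were higher and 1 lower, although 10 lay below 0 and the list median was -0.18, or -0.39 in clone 2, with 4, 3, 4 and 2 higher and 0, 2, 3 and 0 lower when each library was left out in turn. *Nes*, the intermediate filament nestin, had 89.6 and 94.1 CPM in WT and 136 and 186 CPM in clones 1 and 2, with 0.81 (SE 0.11, edgeR adjusted p = 0.000204), *Tubb3*, a neuronal tubulin, rose by 0.54 and *Irx3* fell by 0.57, both past the thresholds in clone 2 alone. *Foxb1* (2.04) and *Neurog3* (1.38), both under 2 CPM, were also higher. *Sox1* and *Pax6*, neural factors, were not called (0.21 and -0.52). Of 16 endoderm genes 5 were called, each lower, and 2 of them, *Amn* and *Lamb1*, in both clones. *Gata4* and *Lama1* passed in clone 2 alone. *Gata4* had 9.53 and 9.08 CPM in WT and 6.599 and 5.17 CPM in clones 1 and 2, *Amn*, a subunit of the vitamin B12 receptor, fell by 0.74, and the laminins *Lama1* and *Lamb1* and the collagen *Col4a2* had log2 fold changes of -0.63, -0.56 and -0.53. *Sox17* was not called (0.04), and 5, 4, 5 and 2 members were lower with each library left out in turn. Of 11 trophoblast genes 5 were called, each lower. *Tfap2c*, a factor shared by trophoblast and germ cells, had 14.3 and 13.9 CPM in WT and 8.46 and 5.79 CPM in clones 1 and 2, and *Hand1* and *Ascl2* were lower in both clones (-0.87 and -1.14) and *Gata2* and *Esx1* in clone 1 alone (-0.69 and -0.51). In the fits without 1 library, 4, 3, 3 and 5 were lower. *Cdx2* had 0.108 and 0.335 CPM in WT and 0.324 and 0.11 CPM in clones 1 and 2 and was not called. Of 10 fibroblast feeder genes 3 were called, each lower, *Col1a1* with 11.8 and 14.2 CPM in WT and 6.96 and 8.25 CPM in clones 1 and 2, *Pdgfrb* with 4.84 and 4.69 CPM in WT and 2.75 and 2.31 CPM in clones 1 and 2 and *Col3a1*, under 1 CPM (-2.02). *Col1a2* was not called (-0.49).

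Markers checked the labelled cell type. Their CPM are per raw library size, without the normalisation used for the other CPM values. ES cell markers summed to 902 and 869 CPM in WT and 864 and 800 CPM in the clones, and 3 of the 7 were lower. Fibroblast feeder markers summed to between 15.4 and 25.5 CPM, primitive endoderm markers to 10.4 to 15.3, trophoblast markers to 14.9 to 19.4, neural markers to 29.5 to 42.6 and mesoderm markers to 2.57 to 3.26, and 0 markers were at 0 in all 4 libraries. Feeder markers were 21.9 and 25.5 CPM in WT and 15.4 and 18.6 in clones 1 and 2. Both clones lay below WT, as did the median of the matrix genes, with which these markers share collagens. Between the clones the feeder sum was higher in clone 2, whereas the matrix median was -0.36 in clone 1 and -0.47 in clone 2. The part of feeder cells in the matrix falls was not tested. In bulk RNA, fewer cells of a type and less RNA per cell cannot be told apart.

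The medians of the nuclear chromosomes stayed near 0 in both clones, and those of the mitochondrial genome did not. The median log2 difference from WT over the tested genes of a nuclear chromosome ranged from -0.03 to 0.06 in clone 1 and from -0.06 to 0.08 in clone 2. On the X chromosome 63 genes were higher (8.87%) and 26 lower (3.66%) of 710 tested, against 6.12% and 6.59% of all tested genes. The medians of the X chromosome were 0.06 and 0.07 in clones 1 and 2. The 20 tested genes of the mitochondrial genome had a median of -0.13 in clone 1 and -0.62 in clone 2. The 5 called there, each lower, were the ribosomal RNAs *mt-Rnr1* (log2 fold change -0.88, SE 0.12, edgeR adjusted p = 0.000204) and *mt-Rnr2* (log2 fold change -0.55, SE 0.12, edgeR adjusted p = 0.00293) and the transfer RNAs *mt-Tw*, *mt-Tt* and *mt-Tq*. The libraries were made from poly(A)-selected RNA, and how far they capture ribosomal and transfer RNAs was not tested. The messenger *mt-Co1* fell short of the fold threshold (log2 fold change -0.46, SE 0.16, edgeR adjusted p = 0.0405), with -0.20 in clone 1 and -0.79 in clone 2.

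**Figure D5:**
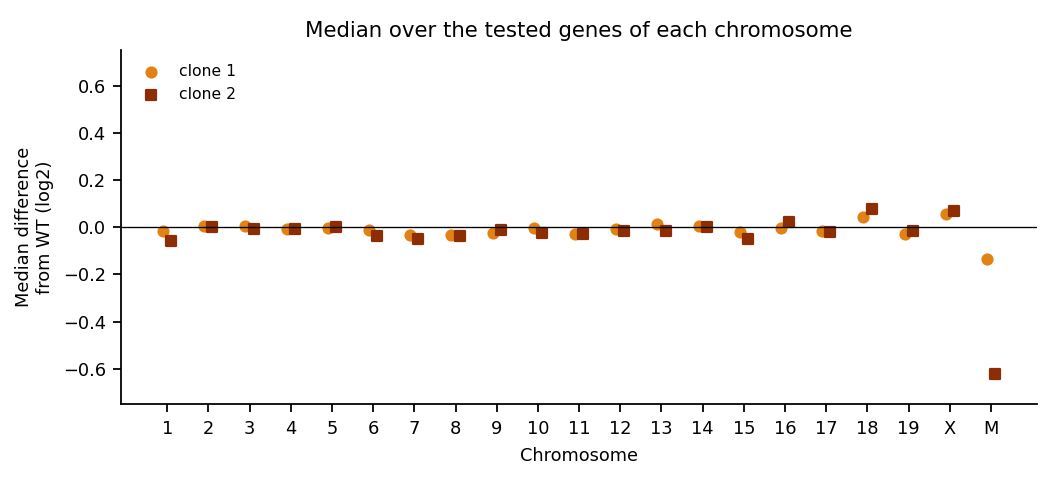
Median log2 difference from WT over the tested genes of each chromosome in clone 1 (circles) and clone 2 (squares), with M for the mitochondrial genome. The nuclear chromosomes lie between -0.06 and 0.08, and the mitochondrial genes at -0.13 and -0.62.

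By annotation class, 898 of 14251 protein-coding genes were higher (6.3%) and 961 lower (6.74%). Antisense RNAs were higher in 30 and lower in 11 of 267, and long intergenic noncoding RNAs in 24 and 24 of 261. Of 53 small nucleolar RNAs 1 was higher and 8 were lower, with a median of -0.51, and 46 lay below 0. How far poly(A) libraries capture these RNAs was not tested either. Of 26 sense-intronic transcripts 2 were higher and 6 lower, with a median of -0.57. Processed pseudogenes had few calls, 37 and 42 of 1547.

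Tested directly against each other, the clones differed in 434 genes (2.55%), of which 211 were higher and 223 lower in clone 2. Of these, 264 were also called against WT and 170 were not, and clone 2 was called against WT in 394 of them and clone 1 in 131. Of all tested genes, 0 were called on opposite sides of WT in the clones. Among the 981 genes called in both clones, 120 also differed between them. Clone and library cannot be told apart here.

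Among genes called between the clones at a mean of at least 2 CPM, those lowest in clone 2 relative to clone 1 were *Abcg1*, *Dpep3*, *Tbx3*, *Slco4a1* and *Gm37123*. *Slco4a1*, an organic anion transporter, had 11.4 and 10.1 CPM in WT and 5.304 and 2.09 CPM in clones 1 and 2, and all 5 already lay below WT in clone 1. By the same rule, those highest in clone 2 were the pseudogene *Gm12033*, *Rbmx*, *Mat2a*, *Gm14569* and *Slc16a12*. *Mat2a*, which makes the methyl donor S-adenosylmethionine, had 15.3 and 14.5 CPM in WT and 19.96 and 47.4 CPM in clones 1 and 2. *Rbmx*, an RNA-binding protein of the spliceosome, had 2.82 and 2.87 CPM in WT and 3.08 and 7.34 CPM in clones 1 and 2. *Slc16a12*, a creatine transporter, had 1.696 and 1.71 CPM in WT and 1.903 and 4.29 CPM in clones 1 and 2. In clone 1 the last 2 lay 0.12 and 0.16 above WT on the log2 scale and were not called.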

How the data were processed

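RNA-seq of WT and delE6/delE6 ES cells at day 1 of differentiation was analysed from the gene tables of the authors. Per the submitters' processing notes, reads were aligned with STAR 2.7.2a to mm10, and DESeq2 1.40.2 is also listed there. The deposited values are raw read counts per gene, with no normalization, in 3 columns for the unstranded and the 2 stranded settings. The column for the opposite strand was used, since the libraries are strand-specific, so overlapping antisense genes are counted apart. The header lines on unmapped and ambiguous reads were left out of library sizes and tests, and WT replicate 1 has none in its table. Gene names came from GENCODE M21, which paired 48058 of the 48440 identifiers.

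Counts were filtered with filterByExpr (minimum count 10, minimum total 15), scaled by TMM and fitted with edgeR 4.0.16 (R 4.3.3), using quasi-likelihood tests on all 8 libraries with a coefficient for each genotype. A second fit gave each delE6/delE6 clone its own coefficient, with the spread estimated from the other groups. Fold changes are those of the fits, on the log2 scale. A prior count of 2 entered only the log2 CPM used to correlate same-numbered libraries. The thresholds were 0.05 on the adjusted p (Benjamini-Hochberg) and 0.5 on the size of the change. The code was tested on simulated data. Tables and figures were made with Python 3.11.15, numpy 2.4.6, pandas 2.3.3 and matplotlib 3.10.9. Sequences came from the GRCm38 genome and from RefSeq.

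The comparison, the 39 gene lists and the tests were chosen with earlier results of these data known. Named genes were *Tbxt*, the 12 largest rises and 12 largest falls among genes called in both clones with a mean of at least 2 CPM, the 5 largest in each direction between the clones, and in each list the first 2 members and up to 4 called members with the largest change at that mean. Some genes that the rule names are not reported here. Other genes were named after their values were seen, among them the remaining imprinted and naive pluripotency genes, members that complete a short count, the mitochondrial genes, *Kcnq1*, *Pou5f1*, *Sox2* and *1700010I14Rik*. The alternatives were DESeq2 1.42.0, its size factors, other filters, unstranded counts, a fit of the 4 libraries alone, a replicate block, the TREAT test and leaving out each library.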

Additional observations from a re-analysis of the deposited data

Results flagged for a closer look

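The clones were tested against each other for every gene, and the 5 largest differences in each direction among called genes averaging 2 CPM or more are given as log2 differences of clone 2 from clone 1, by edgeR's quasi-likelihood test. Lower in clone 2 were *Abcg1* by -1.49 (edgeR adjusted p = 0.023), *Dpep3* by -1.36 (0.00966), *Tbx3* by -1.35 (3.33e-07), *Slco4a1* by -1.34 (0.00071) and *Gm37123* by -1.33 (0.0195), with the adjusted p in parentheses. Higher in clone 2 were *Gm12033* by 1.35 (edgeR adjusted p = 0.00071), *Rbmx* by 1.25 (0.000844), *Mat2a* by 1.25 (1.31e-06), *Gm14569* by 1.22 (0.000223) and *Slc16a12* by 1.17 (0.0227). Each clone is 1 library, so the differences have no replicate of either clone behind them.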

How the results depend on the processing

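Against 1044 genes higher and 1123 lower, DESeq2's Wald test gave 848 and 719, with 291 higher and 209 lower in both clones against 479 and 502, and 141 genes between the clones against 434. Of its calls 54.1% were higher, against 48.2%. For *Tbxt* it gave -0.81 (adjusted p = 0.152), and the fit of the 2 genotypes alone gave -0.81 (edgeR adjusted p = 0.0558), both above 0.05. The TREAT test against a log2 fold change of 0.5 called 141 higher and 126 lower. Leaving out each library in turn gave 544 to 1654 genes higher, 605 to 1734 lower and -1.01 to -0.63 for *Tbxt*, and the lowest counts came without clone 2 and the highest without clone 1. Size factors of DESeq2, no filter, a filter of 10 counts in every library, unstranded counts and the fit of the 2 genotypes alone moved none of these counts by more than 1.5 times. The deviations of same-numbered WT and delE6/delE6 libraries correlated at 0.0494. The delE6/delE6 deviation is also the difference between the clones, so this value cannot show whether the samples were handled in pairs. With the replicate number as a block 1021 genes were higher and 1114 lower, 439 and 437 of them in both clones. In that fit 415 genes differed between the clones and *Tbxt* was at -0.82. Of the genes named by the rule other than *Tbxt*, 12 lost their call by DESeq2, 29 without clone 2 and 21 without WT replicate 1, and 0 of the called changes reversed. Depth limits genes with few reads, such as *Tbxt* itself.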
